A study of Mus musculus with 34 samples.

Results

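Txnip, its arrestin-domain relatives Arrdc3 and Arrdc4, and 7 genes of the thioredoxin system were followed through single mouse preimplantation embryos. The 10 genes were taken by symbol (Txnip, Arrdc3, Arrdc4, Txn1, Txn2, Txnrd1, Txnrd2, Prdx1, Prdx2 and Nfe2l2) from the 49686 symbols listed for zygotes and late 2-cell embryos and the 51734 listed for blastocysts. They were selected on the zygote reads, by the lower Txnip level in R442Q zygotes, so the zygote difference between genotypes is a description here: no p is given for it and nothing rests on it.

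CHK1 is a checkpoint kinase activated by DNA damage. Zygotes had received mRNA for wild-type CHK1 (WT) or for the mutant R442Q, on top of their own CHK1. Both groups at every stage thus come from injected zygotes, and no uninjected embryos were analysed here. How much injected CHK1 remained at each stage was not examined here. WT embryos numbered 5 at the zygote stage, 4 at the late 2-cell stage and 7 at the blastocyst stage, and R442Q embryos 6, 5 and 7. The zygotes and late 2-cell embryos had no inhibitor. All 14 blastocysts grew in medium with a CHK1 inhibitor at 30 nM, so at that stage the genotypes were compared only under the inhibitor. Where blastocysts are set beside earlier stages, stage and inhibitor cannot be told apart. The labels give no strain or age. Each library is 1 embryo, and the labels do not say whether embryos came from separate litters or injection days, so p-values measure the spread between these embryos only.

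TXNIP is an alpha-arrestin that binds the active site of reduced thioredoxin and blocks it, and that also lowers glucose uptake at the plasma membrane. Thioredoxin passes electrons from NADPH, by way of thioredoxin reductase, to peroxiredoxins, which remove hydrogen peroxide, and to other oxidised proteins. Txnip is known as a target of the glucose sensors MondoA and ChREBP, which bind carbohydrate response elements with their partner MLX, and Arrdc4 is a further target of MondoA. NRF2, encoded by Nfe2l2, acts through antioxidant response elements in genes such as Txnrd1 and Prdx1.

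Promoter letters of 3 of the genes are shown because they hold matches to the elements of these pathways. Each is the 250 bases before the RefSeq start on GRCm38.p6, read 5′ to 3′ on the gene's strand. Capitals mark a carbohydrate response element and CCAAT boxes in Txnip, chr3:96557707-96557956 (+), an E-box and CCAAT boxes in Arrdc4, chr7:68749239-68749488 (-), and the antioxidant response element core in Prdx1, chr4:116685349-116685598 (+).
Txnip: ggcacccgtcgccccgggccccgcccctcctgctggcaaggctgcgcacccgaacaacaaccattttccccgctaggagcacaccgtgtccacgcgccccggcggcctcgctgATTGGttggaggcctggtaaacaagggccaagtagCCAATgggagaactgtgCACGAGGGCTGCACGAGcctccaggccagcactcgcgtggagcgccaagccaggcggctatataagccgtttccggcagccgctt
Arrdc4: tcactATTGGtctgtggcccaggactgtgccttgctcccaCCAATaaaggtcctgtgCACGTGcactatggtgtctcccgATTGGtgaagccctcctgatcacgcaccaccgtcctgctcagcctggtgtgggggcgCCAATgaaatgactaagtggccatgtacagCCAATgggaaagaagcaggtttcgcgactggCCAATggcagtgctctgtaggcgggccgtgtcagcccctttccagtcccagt
Prdx1: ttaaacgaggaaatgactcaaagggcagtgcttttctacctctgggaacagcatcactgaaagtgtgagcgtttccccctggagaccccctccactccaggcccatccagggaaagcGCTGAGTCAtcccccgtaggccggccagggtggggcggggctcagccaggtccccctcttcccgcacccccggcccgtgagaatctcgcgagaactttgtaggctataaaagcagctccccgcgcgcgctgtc

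The carbohydrate response element was searched as 2 copies of CACGNG with 5 bases between them, the E-box as CACGTG, the CCAAT box as CCAAT and the antioxidant response element core as TGACNNNGC, all on both strands. The first pattern can overlap an E-box where the N of a copy is a T, and its letters were written with the Txnip promoter in view. Of 32851 RefSeq promoters of this length, 15 (0.046%) held the carbohydrate response element pattern. Txnip was one of them, with its first base at position -85 from the start. CCAAT boxes lay at -137 and -102 in Txnip, and 6 of them in Arrdc4, against 33.85% of all promoters with at least 1. Single CCAAT boxes were also found at -75 in Txn2, at -163 in a Txnrd1 promoter, and in Arrdc3. The Arrdc3 box lies in a pair of overlapping promoters, at -173 from the start of one and -211 from that of the other. Arrdc4 had an E-box at -193, which 6.021% of promoters had. The antioxidant response element core, present in 10.161% of promoters, began at -133 in Prdx1, at -240 in Nfe2l2, at -28 in Arrdc4 (in lower case above) and at -92 in 1 of 3 Txnrd1 promoters. These matches are descriptions of letters, and binding was not measured.

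Txnip lies on chromosome 3 at 96557957 to 96561883 (+) in GENCODE M21 on GRCm38. The antisense gene Gm15441 (96555765 to 96566801, -) overlaps its exons, and 15.7% of the 50-base stretches of Txnip transcripts also occur in Gm15441. Whether reads were counted by strand is not given in the sources used here, so reads of the 2 genes may be mixed. Prdx2 shares exonic bases with Rnaseh2a and Junb on the other strand and 12.0% of its stretches with other genes, and Prdx1 shares 8.8%, mostly with pseudogenes, so both carry some uncertainty of this kind.

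Estimated counts summed to 7183632 to 11296522 per zygote and 5727956 to 8916343 per late 2-cell embryo. Blastocyst depth is unknown, since FPKM (fragments scaled to transcript length and library size) was the unit there. A pair of libraries stood apart in genes at an FPKM of 1 or more: R442Q late 2-cell replicate 3 had 16211, against 11984 to 13475 in the other 4 of its group, and R442Q blastocyst replicate 7 had 8189, against 9852 to 12191 in the other 13 blastocysts. CPM below is the count scaled to library size, normalised by trimmed means (TMM) over the 20 zygotes and late 2-cell embryos. CPM and FPKM are shares of a library, so fewer cells of a type and less RNA per cell cannot be told apart, and amounts per embryo were not measured. Summed FPKM of 8 oocyte and zygote markers was 3734 to 8041 in zygotes, 1243 to 3172 in WT and 1675 to 6937 in R442Q late 2-cell embryos, and at most 4.54 in blastocysts. The 8 late 2-cell markers (Zscan4 genes and others) summed to 63.2 to 238 in zygotes, 159 to 1440 in WT and 716 to 2465 in R442Q late 2-cell embryos. Trophectoderm markers summed to at least 1249 in every blastocyst, and at most 75.6 in the earlier stages. Among 10 cumulus cell markers the sum was 17.9 to 21.0 in WT and 12.7 to 17.5 in R442Q zygotes, with Ptx3 and Lhcgr at 0 in all WT zygotes. Cyp19a1 carried most of it, at a mean of 17.9 FPKM in WT and 12.3 in R442Q. In late 2-cell embryos the sum was 44.6 to 71.7 in WT and 17.9 to 72.2 in R442Q, most of it Amhr2 (means of 56.6 and 25.2), with Inhba, Fshr and Lhcgr at 0 in all of them, and in blastocysts it was 0 to 70.1. The part of these genes in the results was not tested. The blood marker Ptprc was at 0 in all zygotes and late 2-cell embryos.

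Txnip was among the most abundant mRNAs of WT zygotes and lower in every other group. Its FPKM in WT zygote replicates 1 to 5 was 203, 339.8, 190.2, 152 and 358. R442Q zygotes ranged from 31.8 to 117 with a median of 64.6. Each WT zygote was above each R442Q zygote, which is the pattern that chose the gene. WT late 2-cell embryos held 26.6, 26.2, 35.7 and 29.8, and R442Q late 2-cell embryos 25.7, 41.2, 23.8, 70.4 and 37.9. WT blastocysts ranged from 0.93 to 35.5 with a median of 7.28, and R442Q blastocysts from 10.5 to 83.1 with a median of 12.25. At both later stages the genotypes overlapped. By mean FPKM, Txnip stood at rank 388 of 24335 genes above 0 in WT zygotes, 1462 in R442Q zygotes, and 3579 and 2961 in WT and R442Q late 2-cell embryos. The WT zygote mean was 3.8 times that of R442Q zygotes, and 8.42 and 6.26 times those of WT and R442Q late 2-cell embryos.

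**Figure D1:**
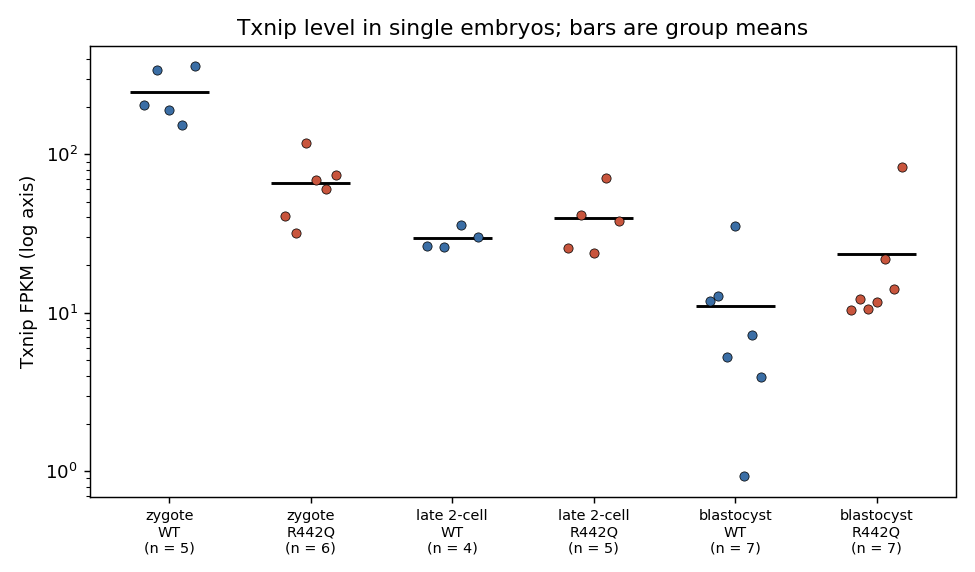
Txnip FPKM on a log axis, 1 point per embryo, with bars at the group means (WT blue, R442Q red). WT zygotes sit between 152 and 358 and R442Q zygotes between 31.8 and 117, while the genotypes overlap in late 2-cell embryos and blastocysts.

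Txnip is set here beside its partner Txn1, the cytosolic thioredoxin, per length. The ratio of Txnip FPKM to Txn1 FPKM within an embryo had a median of 4.1 in WT zygotes (2.55 to 8.55) and 2.15 in R442Q zygotes (0.935 to 2.73). It was 0.535 in WT late 2-cell embryos (0.216 to 0.992) and 0.29 in R442Q late 2-cell embryos (0.165 to 0.512). It was 0.0197 in WT blastocysts (0.00254 to 0.0684) and 0.0289 in R442Q blastocysts (0.0204 to 0.262). The ratio was under 1 in every late 2-cell embryo and blastocyst, and in R442Q zygote replicate 2 among the zygotes. The zygote ratios use the values that chose Txnip, so the difference between stages is a description with no test.

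In zygotes, where the contrast chose the genes, 4 of the 8 with enough reads to be fitted lay past an adjusted p of 0.05 between genotypes in edgeR's quasi-likelihood fit, beside 13.2% of all 12420 genes tested. Of these genes 1 was higher in R442Q (Prdx2) and 3 lower, beside 6.3% and 6.92% of all genes, and the genotypes did not overlap for 2, beside 8.39%. The choice of the genes fixed these counts in part, they are no test, and nothing is read from them. Txnip was at 191 ± 85.1 CPM in R442Q (SD, n = 6) against 642 ± 234 in WT (n = 5), a log2 difference of -1.77 ± 0.27 (SE). The thioredoxin Txn1 was at 30.7 ± 6.68 CPM against 44.9 ± 6.79, and Txnrd1, the cytosolic thioredoxin reductase, at 81.4 ± 11.1 against 117 ± 16.9. Prdx2, a cytosolic peroxiredoxin, was at 1043 ± 155 CPM in R442Q and 737 ± 38.2 in WT, the opposite direction, and its genotypes did not overlap. Txn2, the mitochondrial thioredoxin, was at 154 ± 22.9 against 120.2 ± 14.1 CPM, Nfe2l2 at 40.5 ± 10.5 against 29.2 ± 8.24, Prdx1 at 1240.0 ± 228 against 1306 ± 115 and Arrdc3 at 4.15 ± 1.39 against 6.01 ± 0.886. Arrdc4 and Txnrd2, the mitochondrial reductase, were too low to be fitted. The median log2 difference was -0.33 over the 8 genes and 0.01 over all genes tested. Gm15441, the antisense gene at Txnip, was at 5.21 ± 1.79 CPM in WT and 5.03 ± 0.999 in R442Q zygotes.

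From zygote to late 2-cell Arrdc3 rose steeply, and the levels of Arrdc4 were higher and those of Txnip lower. Arrdc3 and Arrdc4 encode alpha-arrestins that link membrane proteins to ubiquitin ligases of the NEDD4 family. Arrdc3 rose from 6.01 ± 0.886 CPM in WT zygotes to 78.8 ± 56.6 in WT late 2-cell embryos, where the 4 embryos held 150.5, 12.2, 79.9 and 72.8, a log2 change of 3.71 ± 0.50 (edgeR, adjusted p = 9.96e-07). In R442Q embryos it rose from 4.15 ± 1.39 CPM to 116 ± 48.0 (log2 change 4.81 ± 0.47, adjusted p = 6.65e-09). Arrdc4 was near absent from zygotes, with counts of 5, 0, 0, 3 and 0 in WT and of 0 to 14 in R442Q. It reached 20.4, 39.8, 45.1 and 48.8 CPM in WT late 2-cell embryos and 2.66, 39.2, 29.2, 15.3 and 58.0 in R442Q. Arrdc4 was too low to be tested among zygotes and entered the fit across stages through the late 2-cell embryos, where it is high, so its change is given with no p. Its fitted log2 changes, 7.51 ± 0.98 in WT and 4.67 ± 0.75 in R442Q, rest on zygote counts near 0 and depend on the prior count. Neither gene overlapped between the stages in either genotype, beside 57.0% of all 16199 genes in WT and 45.5% in R442Q that did not. Txnip went from 642 ± 234 to 68.7 ± 11.9 CPM in WT (log2 difference -3.22 ± 0.39) and from 191 ± 85.1 to 87.7 ± 45.8 in R442Q (-1.12 ± 0.32). As its zygote values chose it, these are given without a test, and the difference between the genotypes' changes was not tested.

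Of the 8 other genes fitted, 6 passed in each genotype, against 61.2% of all 16199 genes in WT and 65.1% in R442Q, so the share that changed was close to that of all genes. Arrdc4 is 1 of the 6 in each, and its call follows in part from the filter on low counts. Txnrd1 fell in both, to 51.2 ± 16.1 CPM in WT (log2 change -1.20 ± 0.33, edgeR adjusted p = 0.0036) and to 15.4 ± 9.11 in R442Q (-2.40 ± 0.32, adjusted p = 6.1e-07). Txn2 also fell in both, from 120.2 ± 14.1 to 60.0 ± 28.2 CPM in WT (log2 change -1.001 ± 0.29, adjusted p = 0.00511) and from 154 ± 22.9 to 70.6 ± 23.2 in R442Q (-1.12 ± 0.26, adjusted p = 0.000719). The other calls came in one genotype each. The peroxiredoxins passed in WT, where Prdx1 fell from 1306 ± 115 to 389 ± 91.1 CPM (log2 change -1.75 ± 0.31, adjusted p = 3.6e-05) and Prdx2 from 737 ± 38.2 to 433 ± 140.3 (-0.77 ± 0.22, adjusted p = 0.0042). In R442Q, Prdx1 had a log2 change of -0.46 ± 0.27 (adjusted p = 0.128) and Prdx2 of -0.20 ± 0.19 (adjusted p = 0.363). Txn1 rose in R442Q from 30.7 ± 6.68 to 113 ± 55.1 CPM (log2 change 1.89 ± 0.31, adjusted p = 1.48e-05), with a WT change of 0.34 ± 0.34 (adjusted p = 0.39). Nfe2l2 rose in R442Q from 40.5 ± 10.5 to 69.9 ± 12.2 CPM (0.79 ± 0.24, adjusted p = 0.00734), with a WT change of 0.57 ± 0.27 (adjusted p = 0.0722). Whether any of these changes differs between genotypes was not tested. Leaving out R442Q late 2-cell replicate 4 brought Prdx1 under the threshold in R442Q too (log2 change -0.88, adjusted p = 0.000838), and Nfe2l2 passed in WT without zygote replicate 3 (adjusted p = 0.0432) or late 2-cell replicate 4 (0.0398). The stages were deposited in separate tables, so stage and table cannot be told apart, and these changes share the zygotes with the contrast that chose Txnip.

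**Figure D2:**
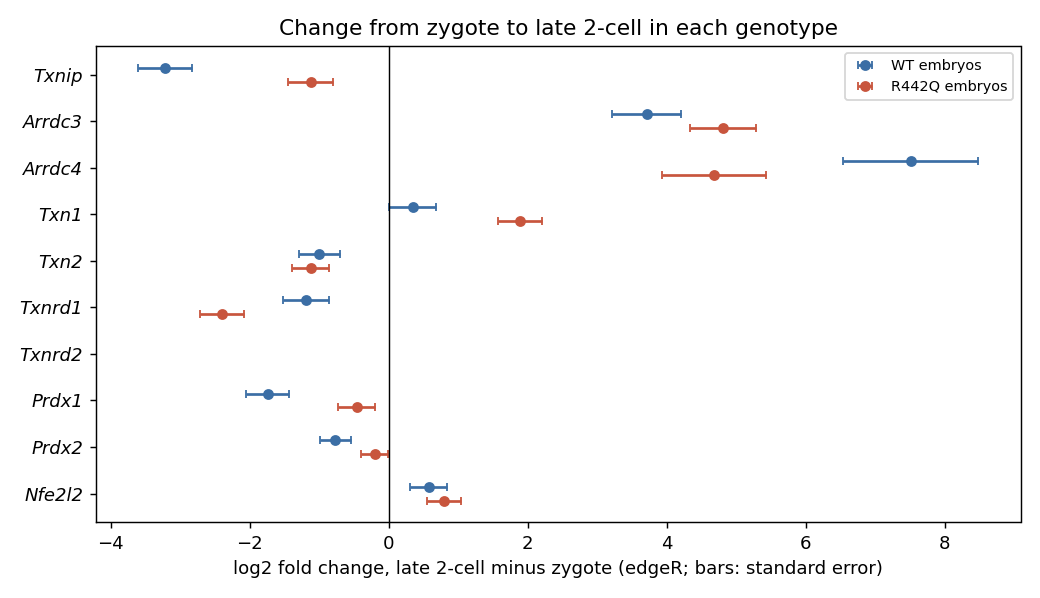
Log2 fold change from zygote to late 2-cell for each gene that could be fitted, in WT (blue) and R442Q (red) embryos, with standard errors from edgeR. Arrdc3 and Arrdc4 lie at 3.71 to 7.51, Txnip at -3.22 in WT and -1.12 in R442Q (shown without a test), and Txnrd2 was too low to be fitted.

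In late 2-cell embryos none of the 9 genes tested passed between genotypes in edgeR, against 4.18% of all 13883 genes (1.22% higher and 2.95% lower in R442Q). At an unadjusted p under 0.05 there were 5 of the 9, and 2910 of the 13883. By other tools the count was 3 with DESeq2 and 1 with limma on FPKM, where the calls over all genes rose from 580 to 1854 and 652. The genes nearest the threshold were Txnrd1, Prdx2 and Prdx1. The median log2 difference was 0.61 over the 9 genes and 0.07 over all genes tested.

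Txnip did not pass the test at this stage. It was at 56.6, 62.0, 83.6 and 72.4 CPM in WT and at 64.0, 81.8, 51.2, 167 and 74.4 in R442Q. The log2 difference was 0.40 ± 0.36 (edgeR, adjusted p = 0.564) and became 0.04 ± 0.30 without R442Q replicate 4. That embryo, the one at 167 CPM, also had 19.9 CPM of the antisense Gm15441, against at most 1.16 in the other late 2-cell embryos. It also had the highest CPM of its group for Txn1, Txn2, Prdx1, Prdx2 and Nfe2l2. Arrdc3 (116 ± 48.0 CPM in R442Q against 78.8 ± 56.6 in WT, adjusted p = 0.584) and Arrdc4 (28.9 ± 21.4 against 38.5 ± 12.7, adjusted p = 0.795) overlapped widely between genotypes.

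Txnrd1 was at 59.5, 66.2, 49.9 and 29.2 CPM in WT and at 4.78, 14.5, 29.97, 14.6 and 13.0 in R442Q. R442Q replicate 3, the embryo with the most genes detected, is the 1 that reached the WT range. Without it, calls over all genes went from 580 to 891. The log2 difference was -1.69 ± 0.47 (edgeR, adjusted p = 0.057). It passed without R442Q replicate 3 (-2.06, adjusted p = 0.0216), without a filter on low counts (adjusted p = 0.0183), with DESeq2 (0.0085) and in the 4-group model (0.00104), and was -1.37 (adjusted p = 0.156) once a trend with transcript length and GC content was removed.

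Prdx2 and Prdx1 did not pass in late 2-cell embryos. Prdx2 was at 223, 515, 487 and 507 CPM in WT and at 789.5, 1050.0, 904, 1114 and 669.7 in R442Q, with no overlap. Its log2 difference was 1.12 ± 0.31 (edgeR, adjusted p = 0.0599). Prdx2 passed without R442Q replicate 3 (adjusted p = 0.0452), with limma on FPKM (0.0499), with DESeq2 (0.00864) and in the 4-group model (0.00203), and with the length and GC trend removed it was 0.64 (adjusted p = 0.367). Prdx1, the most abundant peroxiredoxin in WT zygotes, was at 336, 378, 521 and 322 CPM in WT and at 570.2, 613, 1000.3, 1837 and 478 in R442Q, so only R442Q replicate 5 fell within the WT range. Its log2 difference was 1.25 ± 0.39 (edgeR, adjusted p = 0.0863). Prdx1 passed with DESeq2 (adjusted p = 0.0302) and in the 4-group model (0.00806), and was 0.66 (adjusted p = 0.472) with the length and GC trend removed.

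Nfe2l2 was at 47.9, 39.3, 56.0 and 30.1 CPM in WT and at 60.2, 67.5, 80.5, 84.5 and 57.0 in R442Q. The genotypes did not overlap, and the log2 difference was 0.74 ± 0.31 (edgeR, adjusted p = 0.182). Groups without overlap were thus found for 2 of the 9 genes, Prdx2 and Nfe2l2, against 12.2% of all genes. Txn1 was at 96.3, 23.1, 66.0 and 42.2 CPM in WT and at 102, 88.6, 107, 207 and 62.2 in R442Q (log2 difference 1.03 ± 0.44, adjusted p = 0.191), and the sign turned to -0.02 with the length and GC trend removed. Txn2 did not pass the test (70.6 ± 23.2 against 60.0 ± 28.2 CPM, adjusted p = 0.73). Summed FPKM over all genes, a measure that moves with the length of the mRNAs counted, was 712234 to 742246 in WT and 814376 to 976830 in R442Q late 2-cell embryos. These values and the stage markers above differ between the genotypes in the same embryos, and their part in the results was not tested.

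In blastocysts, all under the inhibitor, none of the 10 genes passed between genotypes in limma on log2(FPKM + 1), and 0.00885% of all 11297 genes did. At an unadjusted p under 0.05 there was 1 of the 10, and 836 of the 11297. The genotypes overlapped for all 10, and were apart for 0.416% of all genes. Txnip had a log2 difference of 1.10 ± 0.58 (adjusted p = 0.73) on the log2(FPKM + 1) scale, which was 0.73 without R442Q replicate 7 at 83.1 FPKM, the embryo with the fewest genes detected, and 1.45 without WT replicate 4 at 35.45. The gene with the unadjusted p under 0.05 was Nfe2l2, at 30.5 ± 11.9 FPKM in R442Q (n = 7, lowest 8.32, median 30.0, highest 42.1) and 46.2 ± 10.04 in WT (n = 7, lowest 31.7, median 47.8, highest 63.5). Its log2 difference was -0.69 ± 0.31 (limma, adjusted p = 0.646). Arrdc3 ranged from 0 to 14.2 FPKM between blastocysts and Arrdc4 from 0 to 25.1. Txn1, at 426 ± 84.4 FPKM in WT and 431 ± 73.9 in R442Q, ranged from 317 to 559. Neither Txn1 nor Txn2 (298 ± 62.9 and 258 ± 80.0 FPKM) passed the test.

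**Figure D3:**
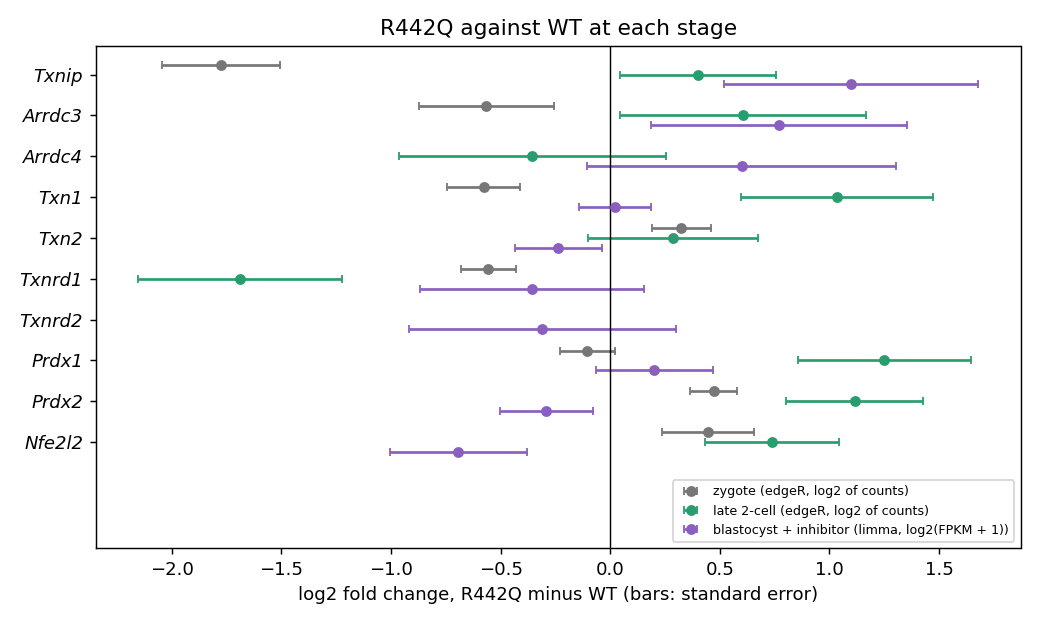
Log2 fold change of R442Q against WT for each gene at each stage, with standard errors; zygotes and late 2-cell embryos are on a count scale and blastocysts on the log2(FPKM + 1) scale. Txnip lies at -1.77 in zygotes, the contrast that chose it, at 0.40 in late 2-cell embryos and at 1.10 in blastocysts, and no late 2-cell or blastocyst value passed the main test.

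Per length, the order of the 10 genes differed between stages. In WT zygotes the order by mean FPKM was Prdx1 (1080.4), Prdx2 (657), Txnip (249), Txn2 (108), Txn1 (52.0), Txnrd1 (46.5), Nfe2l2 (12.7), Arrdc3 (2.93), Txnrd2 (0.364) and Arrdc4 (0.09). Of the neighbours in this order, Txn1 with Txnrd1 and Txnrd2 with Arrdc4 overlapped between embryos. In R442Q zygotes Txnip (65.5) stood below Txn2 (124) and overlapped both Txn2 and Txn1 (31.7). In WT late 2-cell embryos Prdx2 (401) and Prdx1 (389) led, Txnrd2 (1.15) was last, and each of the 7 genes between them, from Txn1 (69.1) to Txnrd1 (19.4), overlapped its neighbour. In R442Q late 2-cell embryos Prdx1 (955) and Prdx2 (890.1) led and overlapped each other, and Txnrd1 (6.63) and Txnrd2 (0.644) were last. WT blastocysts had Prdx1 (484), Txn1 (426), Txn2 (298) and Prdx2 (230.1) on top, all overlapping their neighbours, then Nfe2l2 (46.2), Txnrd1 (25.3), Txnrd2 (15.6), Txnip (11.1), Arrdc3 (4.13) and Arrdc4 (2.65). R442Q blastocysts had the same first 5 genes in that order. In both genotypes each gene from Nfe2l2 down overlapped its neighbour, so the order of the lower 6 is not resolved. Medians lay below some of these means: that of Txnrd1 in WT was 13.7, and that of Txnip in R442Q was 12.25. Txnrd2, at or below 2.99 FPKM in every zygote and late 2-cell embryo, was at 4.27 to 28.1 in 13 of 14 blastocysts and at 0.15 in R442Q replicate 7.

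**Figure D4:**
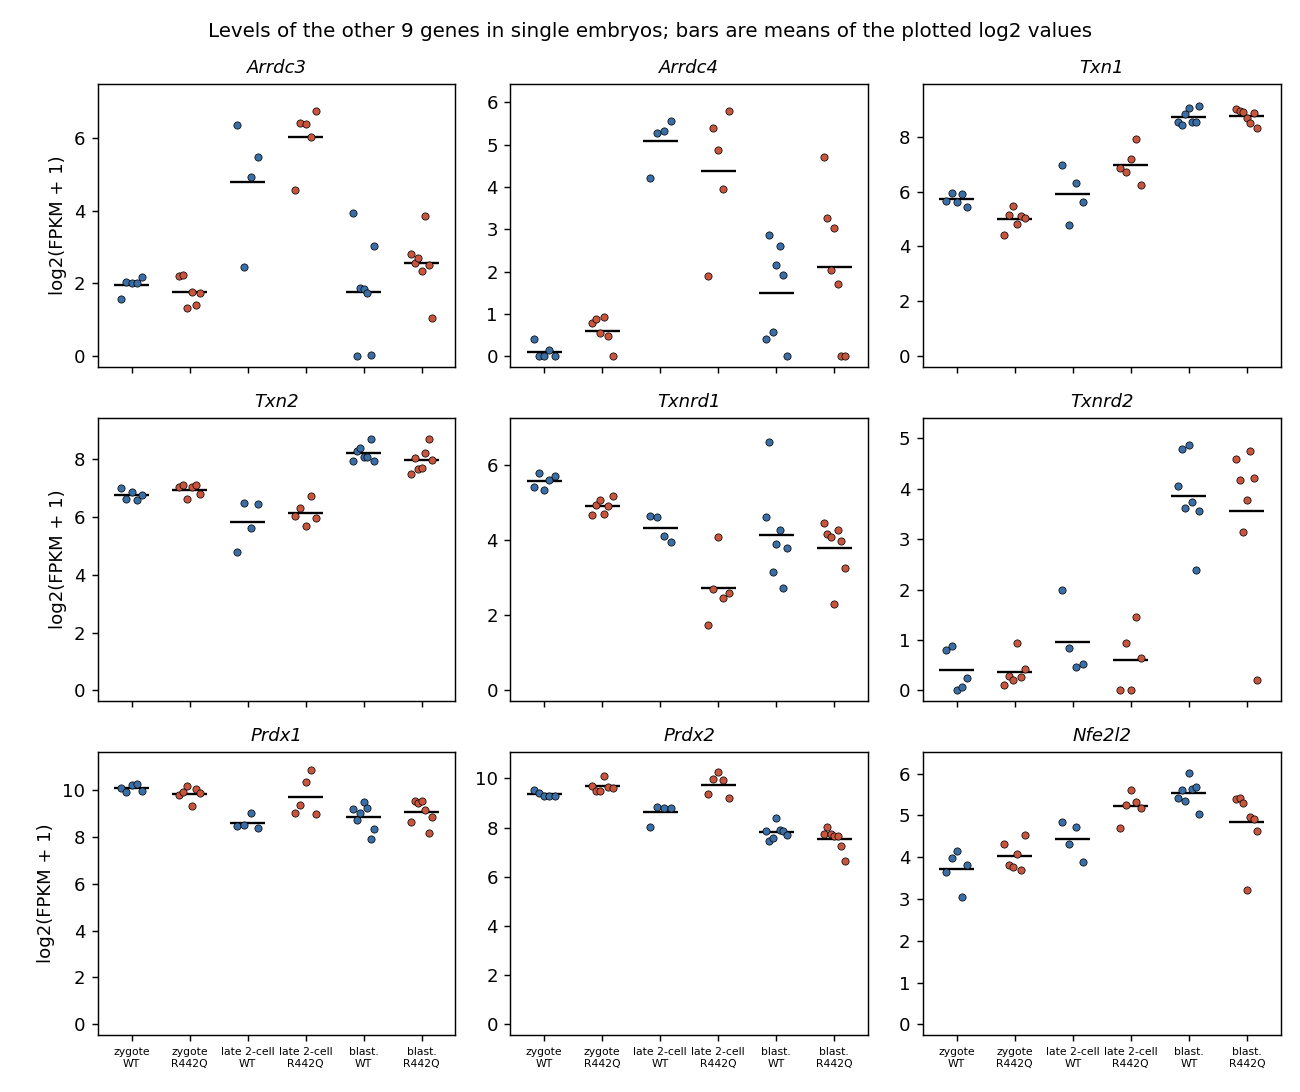
Log2(FPKM + 1) of the other 9 genes, 1 point per embryo, with bars at the means of the plotted values (WT blue, R442Q red). Arrdc3 and Arrdc4 are highest in late 2-cell embryos, Txn1, Txn2 and Txnrd2 in blastocysts, and Txnrd1 is lower in R442Q than in WT late 2-cell embryos with 1 embryo overlapping. Only the blastocysts had the inhibitor.

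Further genes of these pathways were taken from 5 lists of 96 genes in all. The lists were chosen with earlier results of these data known, so shares of the lists are descriptions. In late 2-cell embryos 10 of the 94 tested passed between genotypes in edgeR, 4 higher and 6 lower in R442Q, against 4.18% of all genes. Their median log2 difference was 0.16, against 0.07 over all genes. Among 19 genes of peroxide removal and related redox repair, 2 were higher and 1 lower, against 1.22% and 2.95% of all genes. Prdx6, a peroxiredoxin with a single active cysteine, was at 359 ± 81.7 CPM in R442Q and 119 ± 48.6 in WT (log2 difference 1.65 ± 0.34, adjusted p = 0.0169). Prdx4, the peroxiredoxin of the endoplasmic reticulum, was at 401 ± 118 against 139 ± 56.4 (1.58 ± 0.35, adjusted p = 0.022). Sesn2, a stress-induced inhibitor of mTORC1, was at 41.7 ± 23.9 against 265 ± 41.7 (-2.60 ± 0.53, adjusted p = 0.0165). The peroxiredoxins Prdx3 (29.5 ± 15.0 against 20.1 ± 10.5 CPM, adjusted p = 0.501) and Prdx5 (63.3 ± 35.6 against 47.8 ± 17.4, adjusted p = 0.595) did not pass, and their genotypes overlapped.

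Of 10 arrestins and ubiquitin ligases, 1 was higher and 1 lower, against 1.22% and 2.95% of all genes. Itch, a ligase known to mark TXNIP protein for degradation, was at 3286 ± 1009 CPM in R442Q and 962 ± 418 in WT (log2 difference 1.82 ± 0.35, edgeR adjusted p = 0.0134). Its relative Wwp2 was at 26.9 ± 14.3 against 85.3 ± 9.56 (-1.60 ± 0.39, adjusted p = 0.0357). Of 22 genes of the NRF2 pathway, 1 was higher and 4 lower, against 1.22% and 2.95% of all genes. Fth1, the ferritin heavy chain, was at 1869 ± 466 against 716 ± 70.5 CPM (1.44 ± 0.28, adjusted p = 0.015). Nfe2l1, a relative of NRF2 that drives proteasome genes, was at 31.5 ± 10.6 against 145 ± 15.2 (-2.14 ± 0.32, adjusted p = 0.00469). Mafk, a small MAF protein that pairs with NRF2, was at 11.7 ± 4.97 against 45.8 ± 7.19 (-1.90 ± 0.41, adjusted p = 0.0212), and Pgd, an NADPH-producing enzyme of the pentose phosphate pathway, at 22.5 ± 10.5 against 78.2 ± 5.86 (-1.74 ± 0.41, adjusted p = 0.0307). Bach1, a repressor at antioxidant response elements, also passed (7.14 ± 3.73 against 30.1 ± 18.5 CPM, adjusted p = 0.0498); it fell outside the rule for naming genes and was chosen after its values were seen. The genotypes did not overlap for any of these 10 genes, which follows in part from picking them by a test on the same embryos. Over the 5 lists the genotypes did not overlap for 19 of the 94 genes tested, beside 12.2% of all genes tested. None of 25 thioredoxin-fold and reductase genes and none of 18 genes of Txnip control and glucose use passed in edgeR, with 4 and 2 at an unadjusted p under 0.05, beside 2910 of all 13883 genes. With the length and GC trend removed, 4 of the 10 calls held (Prdx6, Itch, Fth1 and Nfe2l1), and 6, 2, 5 and 4 held without WT replicate 1, 2, 3 and 4. The calls over all genes moved with them, from 580 to 351, 142, 283 and 209. DESeq2 called 19 of the 94. In blastocysts none of 82 tested passed in limma, against 1 of all 11297 genes, and 1 had an unadjusted p under 0.05, against 836.

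**Figure D5:**
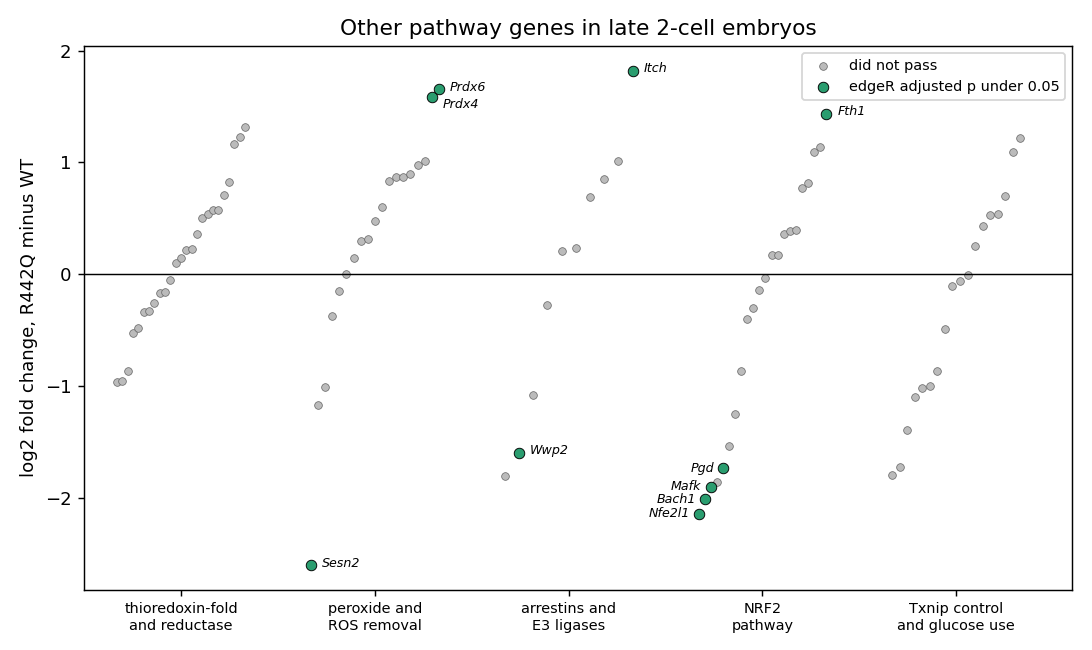
Log2 fold change of R442Q against WT in late 2-cell embryos for the 94 further pathway genes tested, by list and in order of size, with the 10 that passed edgeR's adjusted threshold in green. The named genes span -2.60 (Sesn2) to 1.82 (Itch), and no green point lies in the first or the last list.

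Across the stages, 46 of the 94 further genes rose and 22 fell in WT embryos, and 41 rose and 25 fell in R442Q embryos, against 36.2% and 25.0% of all genes in WT and 35.3% and 29.8% in R442Q. The 94 include Srxn1, Arrb1, Hk1 and Nlrp3, which were too low to be tested among zygotes and entered through the late 2-cell embryos. In the list of peroxide removal and related redox repair, 15 of 19 rose and 2 fell in WT, and 13 rose and 2 fell in R442Q, with median log2 changes of 1.945 and 1.85, against 0.34 and 0.22 over all genes. Not all that rose remove peroxide: they include the sestrins Sesn1, Sesn2 and Sesn3, known for regulating mTORC1, Rrm2, a subunit of ribonucleotide reductase, and Msrb1, a methionine sulfoxide reductase, in both genotypes. Rrm1, the other subunit, rose in WT (adjusted p = 0.0081) and had an adjusted p of 0.586 in R442Q. Gpx1, a glutathione peroxidase, rose from 9.68 ± 3.51 to 309 ± 42.7 CPM in WT and from 12.4 ± 6.73 to 586 ± 107 in R442Q (edgeR, adjusted p = 8.64e-11 and 3.36e-12). Gpx4 rose too (log2 change 4.47 ± 0.40 in WT and 4.83 ± 0.37 in R442Q), but 34.7% of its stretches occur in a pseudogene. Prdx4 rose from 3.90 ± 2.31 to 401 ± 118 CPM in R442Q (adjusted p = 6.03e-11), and from 2.56 ± 2.00 to 139 ± 56.4 in WT (adjusted p = 2.8e-09). Sesn2 rose from 4.30 ± 1.37 to 265 ± 41.7 CPM in WT (adjusted p = 2.06e-09), and from 5.84 ± 2.55 to 41.7 ± 23.9 in R442Q (adjusted p = 4.56e-06). The 2 that fell, in both genotypes, were Msra and Msrb3. They are methionine sulfoxide reductases like Msrb1, which rose from 2.84 ± 0.455 to 26.6 ± 4.69 CPM in WT (adjusted p = 2.56e-07) and from 2.41 ± 0.316 to 51.2 ± 29.0 in R442Q (adjusted p = 5.94e-10).

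Of the NRF2 pathway genes, 12 of 22 rose and 4 fell in WT, and 8 rose and 7 fell in R442Q. That is 72.7% and 68.2% of the list, beside the 61.2% and 65.1% of all genes. Cul3, the ubiquitin ligase scaffold that works with KEAP1 on NRF2, rose from 4.29 ± 1.32 to 286 ± 81.6 CPM in WT and from 3.70 ± 1.42 to 363 ± 81.6 in R442Q (edgeR, adjusted p = 2.23e-12 and 2.03e-13). The cystine carrier Slc7a11 fell from 104 ± 9.77 to 6.66 ± 2.12 CPM in WT, and G6pdx, the first enzyme of the pentose phosphate pathway, from 709 ± 48.6 to 93.0 ± 19.2 (adjusted p = 1.1e-06 and 3.93e-09). Both also fell in R442Q (adjusted p = 4.28e-07 and 2.66e-11).

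Thioredoxin-fold and reductase genes were split, with 9 of 25 higher and 8 lower in WT and 11 higher and 7 lower in R442Q, or 68.0% and 72.0% of the list against 61.2% and 65.1% of all genes. P4hb, a protein disulfide isomerase, rose from 79.5 ± 26.2 to 647 ± 116 CPM in WT, and Glrx, a glutaredoxin, fell from 354 ± 66.5 to 13.7 ± 10.3 (edgeR, adjusted p = 2.1e-08 and 1.39e-06). Both changed in the same directions in R442Q (adjusted p = 8.48e-09 and 0.000144). Of 10 arrestins and ubiquitin ligases, 5 rose and 2 fell in WT, and 4 rose and 1 fell in R442Q. Itch rose from 395 ± 146 to 962 ± 418 CPM in WT and from 411 ± 56.3 to 3286 ± 1009 in R442Q (adjusted p = 0.000342 and 8.26e-10). Nedd4l, a ligase of the same family, fell from 318 ± 40.6 to 25.2 ± 7.75 CPM in WT (adjusted p = 6.36e-11). It also fell in R442Q, from 387 ± 71.0 to 39.2 ± 9.05 CPM (adjusted p = 2.32e-11).

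Genes tied to Txnip control and glucose use were split as well, with 5 of 18 higher and 6 lower in WT and 5 higher and 8 lower in R442Q, or 61.1% and 72.2% of the list against 61.2% and 65.1% of all genes. The glucose carrier Slc2a3 rose from 0.872 ± 0.43 to 46.1 ± 17.6 CPM in WT (edgeR, adjusted p = 1.51e-08). It also rose in R442Q, from 2.25 ± 1.05 to 24.1 ± 15.8 CPM (adjusted p = 1.26e-06). Mlx, the partner of MondoA and ChREBP, fell from 16.7 ± 6.31 to 2.07 ± 1.67 in R442Q (adjusted p = 3.18e-05). Foxo3 fell from 201 ± 31.1 to 72.4 ± 13.7 CPM in WT and from 207 ± 27.4 to 66.5 ± 23.4 in R442Q (adjusted p = 1.82e-05 and 8.9e-07).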

How the data were processed

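Single mouse embryos were sequenced after SMART-seq2 cDNA synthesis and Tn5 (Nextera) library preparation on a HiSeq X-10, per the labels' protocols. The deposited tables of zygotes and late 2-cell embryos hold estimated counts per gene symbol, not normalised, and the submitters' processing notes name RSEM and mm10 without versions. The deposited FPKM tables of all 3 stages were normalised by the authors for length and library size. The annotation, the use of strand and filters are not given in the sources used here. Each sample's group came from its title. No 2 libraries held identical values.

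Estimated counts were rounded and fitted with edgeR 4.0.16 in R 4.3.3 (filterByExpr, minimum count 10, TMM, quasi-likelihood test), each stage alone for genotype and in a 4-group model for stage. Blastocysts were tested with limma 3.58.1 on log2(FPKM + 1), for genes reaching an FPKM of 1 in 7 or more embryos. P-values were adjusted over all genes tested by the Benjamini-Hochberg method, at 0.05. Alternatives were DESeq2 1.42.0, other scalings, filters and pseudocounts, a replicate block, removal of a trend with length and GC content (known for 99.3% of the late 2-cell genes tested), and leaving out each embryo. The scripts were tested on simulated data.

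All 10 genes are named, and from each pathway list, among genes past the threshold, up to 3 by p in each direction; some of those are given only as counts. Pathway genes with a stage change given for either genotype are given for both. Bach1, Msrb1, Sesn1, Sesn3, Rrm1, Rrm2, Prdx3, Prdx5, Srxn1, Hk1 and Nlrp3 fall outside this rule where they are named, and were chosen after their values were seen. Genes most like Txnip are the 5 with the highest Pearson r. The 10 genes and the lists were chosen with earlier results of these data known. Positions are from GENCODE M21 and promoters from RefSeq (GRCm38.p6). Precision rests on depth (totals in the text), and reads amplified from one molecule are not independent.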

Additional observations from a re-analysis of the deposited data

Results flagged for a closer look

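Of the 60 groups of embryos looked at (10 genes in 6 groups), 10 had a highest or lowest embryo far from its nearest neighbour. The measure was Dixon's ratio, the gap to the nearest embryo over the range of the group, on CPM or FPKM. It flags about 1 in 20 groups where values are normally distributed. Whether these values are so distributed was not tested, so no excess is read from the count. Among late 2-cell embryos, R442Q replicate 4 was highest for Txnip at 167 CPM, with the next at 81.8. R442Q replicate 1 was lowest for Arrdc3 at 32.96 CPM, with the next at 122, and WT replicate 1 was lowest for Prdx2 at 223 CPM, with the next at 487. Among zygotes, R442Q replicate 4 was lowest for Prdx1 at 801.9 CPM, with the next at 1222.

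Among blastocysts, WT replicate 4 was highest for Txnip at 35.45 FPKM (next 12.68) and for Prdx2 at 333.3 FPKM (next 238.9), and R442Q replicate 7 was highest for Txnip at 83.1 FPKM (next 21.98). R442Q replicate 5 was highest for Arrdc3 at 13.4 FPKM (next 6.0), R442Q replicate 1 for Arrdc4 at 25.1 FPKM (next 8.7), and WT replicate 2 for Txnrd1 at 95.7 FPKM (next 23.2).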

How the results depend on the processing

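In late 2-cell embryos the number of the 9 genes called was 0 in the test reported, 1 without a filter on low counts (Txnrd1), 1 with limma on FPKM (Prdx2), 3 with DESeq2 and 3 in the 4-group model (Txnrd1, Prdx1 and Prdx2 in each), and 0 to 2 when 1 embryo was left out. The 10 further pathway genes called there became 19 with DESeq2, 26 in the 4-group model, 4 with the length and GC trend removed, and 2 to 13 when 1 embryo was left out. The zygote count of 4, which the choice of the genes fixed in part and which supports nothing, was 1 in the 4-group model. Over all genes, the 580 late 2-cell calls became 889 without a filter, 1854 with DESeq2, 2507 in the 4-group model 169 with the trend removed and 142 to 891 when 1 embryo was left out, and the 1643 zygote calls became 270 in the 4-group model; limma on FPKM split the zygote calls into 411 higher and 1231 lower, against 783 and 860. The causes were not tested.

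Sample numbers were not taken as pairs: deviations of same-numbered samples correlated at -0.079 to 0.047 in zygotes, -0.171 to 0.24 in late 2-cell embryos and -0.168 to 0.204 in blastocysts, so some pairs in each stage were at or under 0.1. The numbers, also those of the replicate block, are those of the sample titles. The submitters' own numbers differ from them in WT zygotes and in some late 2-cell embryos, and pairing by those was not checked. With a replicate block, pathway calls in late 2-cell embryos were 1 (Nfe2l1) and calls over all genes 58; among the 10 genes, the block changed no call in late 2-cell embryos, in blastocysts or across stages, and the zygote count was 3.

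Reversed signs were all in values that passed no test: Txn1 in late 2-cell embryos (-0.02, trend removed), Txn1 in blastocysts (-0.048 with FPKM summing to the same total in each embryo, -0.025 to 0.092 over left-out embryos), and, each over left-out embryos, Txnrd1 (-0.595 to 0.05) and Txnrd2 (-0.554 to 0.249) in blastocysts and Txn1 from zygote to late 2-cell in WT (-0.183 to 0.456). Calls across the stages stayed at 6 of the genes in each genotype under every alternative that kept all embryos. A limma fit on FPKM across the stages was not run, since the tables were normalised separately. Depth limits Arrdc4 and Txnrd2 in zygotes, where 3 counts correspond to 0.266 to 0.418 CPM.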

Other observations

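Genes whose levels ran most like those of Txnip were looked up by Pearson's r, as a description with no test. Over the 20 zygotes and late 2-cell embryos and 9685 genes, where the 4 groups set most of the likeness, they were Rdx (r = 0.926), Mphosph8 (0.922), Bms1 (0.92), Cd164l2 (0.917) and Sec11c (0.911). Among the genes described above, r with Txnip on this scale was 0.677 for Prdx1, 0.656 for Txnrd1, 0.564 for Txn2, 0.258 for Prdx2, -0.276 for Txn1, -0.568 for Nfe2l2 and -0.644 for Arrdc3.

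With each group's mean subtracted, so that only differences between embryos of a group remained, the nearest genes were Aurkc (0.761), Tvp23b (0.76), Zcrb1 (0.75), Serpini1 (0.748) and Gm9843 (0.746). Of the 50-base stretches of Aurkc 54.8% occur in other genes, and those of Gm9843 all occur in Fau, so both are uncertain. The 7 genes described above that reached the level needed had r between 0.066 (Txnrd1) and 0.332 (Prdx1). Over the 14 blastocysts and 7940 genes the nearest were AC122326.1 (0.827), Zfp995 (0.818), Birc3 (0.812), Tmem243 (0.811) and Dynlt3 (0.807), and Txn1, the partner of Txnip, had -0.212. The points share library depth and, in the first set, stage.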
